A study of Mus musculus with 6 samples.

Results

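A set of 10 genes of the blood vessel lining was followed in RNA of isolated astrocytes: *Cldn5*, *Flt1*, *Pecam1*, *Kdr*, *Cdh5*, *Tek*, *Tie1*, *Ly6c1*, *Abcb1a* and *Esam*. They were taken by symbol from the tables of expression values, in which all 10 were found among 24421 listed genes, and every one of the 6 libraries gave a value for each. The libraries came from hippocampal astrocytes of adult male *Siglech* dtr/dtr mice on a C57BL/6 background, which carry the diphtheria toxin receptor in the *Siglech* locus, a gene of microglia. The 3 control libraries (PBS) and the 3 treated libraries (DT) were made 2 days after an intraperitoneal injection of PBS or of diphtheria toxin at 50 µg/kg, so that microglia were ablated only in the DT group while the controls carried the same receptor allele. Each library was made from a pool of 2 mice, and the pools came from independent experiments, so the p-values given here describe the spread between pools and not between single animals. The mice were perfused, cells carrying CD11b were depleted, and astrocytes were then bound by the surface antigen ACSA-2 in a magnetic sort (MACS), a preparation in which endothelial cells were not the target.

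Endothelial cells line every vessel of the brain. Those of the brain form the blood-brain barrier, in which claudin strands seal the cleft between neighbouring cells, adherens junctions hold the cells together, and efflux pumps return lipophilic compounds to the blood. VEGF released by astrocytes and other cells acts through receptor tyrosine kinases on the endothelium, and angiopoietins act through the TIE receptors, which keep vessels quiescent and tight. Astrocytes wrap the vessel wall with their endfeet but are not known to be the main source of any of the 10 transcripts.

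The 7 members with a promoter entry in the RefSeq table (*Tek*, *Tie1*, *Abcb1a*, *Kdr*, *Flt1*, *Ly6c1* and *Cldn5*) were searched for a pair of short motifs of endothelial regulators over the 250 bases before the start site, on both strands. The core of ETS factors, AGGAAG, was found for 4 of the 7 (*Flt1*, *Tie1*, *Ly6c1* and *Abcb1a*), beside 29.5% of 32851 mouse promoters of the same length. The core of SOX factors, ACAAT, was found for *Tek* alone, beside 27.7% of promoters. A member was counted if any of its promoter entries matched, while the shares are of single entries. *Ly6c1* has a further entry, at chr15:75048838-75049087, that holds no ETS core. The entry of *Abcb1a*, at chr5:8566841-8567090, lies well before the annotated start of the gene given below. Other start sites also differ between the sources. The *Ly6c1* entry with the core, at chr15:75048664-75048913, lies mostly inside the gene as annotated below. So does the entry of *Tie1*, at chr4:118489850-118490099. These are matches of letters and not binding sites. The promoters of *Cldn5* and *Kdr*, the members with the largest differences between groups, of *Flt1*, which holds the ETS core 2 times, and of *Tek*, which holds the SOX core 2 times, are shown 5′ to 3′ on the strand of the gene in build GRCm38.p6 (mm10), with the motif letters in capitals. They lie at chr16:18776597-18776846 (+) for *Cldn5*, chr5:75978456-75978705 (-) for *Kdr*, chr5:147726012-147726261 (-) for *Flt1* and chr4:94739039-94739288 (+) for *Tek*.
Cldn5: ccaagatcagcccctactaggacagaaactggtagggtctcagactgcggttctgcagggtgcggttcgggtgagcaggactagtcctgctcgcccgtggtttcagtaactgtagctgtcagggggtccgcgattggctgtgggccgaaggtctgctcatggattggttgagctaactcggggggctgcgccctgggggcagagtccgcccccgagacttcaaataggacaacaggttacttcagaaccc
Kdr: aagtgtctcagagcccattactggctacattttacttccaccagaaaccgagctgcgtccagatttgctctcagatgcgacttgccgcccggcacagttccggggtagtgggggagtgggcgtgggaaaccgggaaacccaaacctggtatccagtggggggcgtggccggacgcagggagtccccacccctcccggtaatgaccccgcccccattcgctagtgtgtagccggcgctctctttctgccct
Flt1: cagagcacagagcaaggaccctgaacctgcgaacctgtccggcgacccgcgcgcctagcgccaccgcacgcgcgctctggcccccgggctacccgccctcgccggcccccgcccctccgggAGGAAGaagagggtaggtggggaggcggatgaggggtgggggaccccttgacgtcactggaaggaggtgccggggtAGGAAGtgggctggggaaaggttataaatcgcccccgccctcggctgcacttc
Tek: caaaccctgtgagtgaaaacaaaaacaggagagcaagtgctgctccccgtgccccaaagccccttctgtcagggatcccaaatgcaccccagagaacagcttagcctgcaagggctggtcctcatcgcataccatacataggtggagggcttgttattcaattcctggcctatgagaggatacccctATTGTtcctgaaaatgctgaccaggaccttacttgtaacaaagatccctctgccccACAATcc

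The genes are spread over the genome, with *Tek* and *Tie1* on chromosome 4 and *Flt1*, *Kdr* and *Abcb1a* on chromosome 5. In the mm10 annotation (GENCODE M21), *Cldn5* is a gene of 1 exonic block at chr16:18776847-18778262 (+), while *Flt1* spans 33 exonic blocks at chr5:147561604-147726011 (-). *Kdr* lies at chr5:75932827-75978458 (-), *Pecam1* at chr11:106654217-106750628 (-), *Cdh5* at chr8:104101625-104144511 (+), *Tek* at chr4:94739289-94874976 (+) and *Tie1* at chr4:118471191-118490061 (-). *Ly6c1* lies at chr15:75044018-75048830 (-), *Abcb1a* at chr5:8660077-8748575 (+) and *Esam* at chr9:37528078-37538319 (+). Of all 75-base stretches of its exons, *Ly6c1* shares 19.0% with other genes, 14.7% with its neighbour *Ly6c2*, and *Abcb1a* shares 12.5%, 11.9% with *Abcb1b*, so the split of reads within these pairs is less certain. *Pecam1* shares 0.1099%, and the other 7 share none. A further gene model lies on the opposite strand of *Cdh5*, and 1 on each strand of *Abcb1a*, and the mapping used strand. *Ly6c2*, a monocyte antigen, held only 17 to 40 reads per library, and *Abcb1b*, the other P-glycoprotein gene, reached 8.91 to 12.8 TPM.

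The libraries held 21704891 to 32933975 reads assigned to genes. *Siglech* itself was listed at 1.14, 2.62 and 2.36 TPM in the PBS libraries and at 0 in each DT library. The DT libraries also held less microglial RNA: 7 of 16 microglial markers fell and none rose (limma, adjusted p under 0.05). Of 15 astrocyte markers 0 were called by limma or edgeR (2 at an unadjusted p under 0.05 in limma, 2 called by DESeq2). Their summed level was even, at 36452 to 37841 TPM in the PBS and 35619 to 38059 TPM in the DT libraries. The list does not include *Gfap*, which the study reported as upregulated after DT in these isolated astrocytes. The marker *Aqp4* was uneven, at 1666 TPM in DT 3, 532 and 479 TPM in DT 1 and DT 2, and 378 to 736 TPM after PBS. Transcripts of brain border macrophages moved the other way, with *Mrc1*, *Lyve1* and *F13a1* higher after DT (limma, 0.555% of genes tested were called higher). In tissue sections the study found no significant change in the number of perivascular macrophages in part of the hippocampus at this time. Choroid plexus markers were higher after DT in 10 of 10, with a median log2 difference of 1.61 and 0 called by limma (7 at an unadjusted p under 0.05; 1 called by DESeq2), and were uneven, with *Ttr* between 80.2 and 1968 TPM in the PBS and between 1190 and 3351 TPM in the DT libraries. Ependymal markers, which include *Rarres2* and *Ccdc153*, were higher in 8 of 8, with a median of 0.51 and 0 called by limma (5 at an unadjusted p under 0.05; 2 called by DESeq2), and summed to 597 to 741 TPM after PBS and 799 to 1330 TPM after DT.

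Levels of the members are given as TPM, transcript levels scaled for length and library size, which allow genes to be compared. *Cldn5*, which encodes the claudin that seals the tight junctions of brain endothelium, measured 174, 220 and 268 TPM in PBS 1, 2 and 3 and 151, 138.5 and 159 TPM in DT 1, 2 and 3. Every DT library lay below every PBS library. The group means were 221 ± 46.6 and 150 ± 10.3 TPM (SD, n = 3 each). *Cdh5*, VE-cadherin of the adherens junction, measured 35.9, 39.5 and 60.3 TPM after PBS and 29.5, 31.9 and 38.2 TPM after DT, where the groups overlapped since DT 3 lay above PBS 1. *Pecam1* (CD31), an adhesion molecule of endothelial contacts that platelets and leukocytes also carry, measured 60.1, 62.5 and 93.9 TPM after PBS and 48.7, 54.9 and 60.7 TPM after DT. DT 3 of *Pecam1* lay just above PBS 1 in TPM and just below it in CPM, reads scaled for library size and composition but not for length. *Esam*, an adhesion molecule of endothelial tight junctions, measured 42.6, 47.0 and 70.1 TPM after PBS and 38.1, 42.0 and 48.1 TPM after DT, again with overlap.

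The receptors for VEGF differed in level from each other. *Flt1* encodes VEGFR1, which binds VEGF tightly and signals weakly, and measured 130, 139 and 200.4 TPM in PBS 1, 2 and 3 and 104, 113 and 129 TPM in the DT libraries. DT 3, the highest DT library, lay just below PBS 1, the lowest PBS library. *Kdr* encodes VEGFR2, the main signalling receptor, and measured 46.4, 48.8 and 73.5 TPM after PBS and 33.3, 36.6 and 40.7 TPM after DT. The *Kdr* groups did not overlap and had means of 56.2 ± 15.0 and 36.8 ± 3.71 TPM (SD, n = 3 each).

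The receptors for angiopoietins, a surface antigen and an efflux pump complete the set. *Tek*, the TIE2 receptor for angiopoietins, measured 32.8, 43.5 and 60.2 TPM after PBS and 29.8, 33.5 and 39.9 TPM after DT. PBS 1 lay among the DT libraries. *Tie1*, its partner receptor, measured 18.5, 20.8 and 27.1 TPM after PBS and 15.8, 17.4 and 19.5 TPM after DT, with DT 3 above PBS 1. *Ly6c1*, a membrane-anchored surface antigen of brain endothelium, measured 88.1, 83.8 and 133 TPM after PBS and 77.3, 75.8 and 93.1 TPM after DT. DT 3 lay above PBS 1 and PBS 2. *Abcb1a*, the P-glycoprotein efflux pump of the barrier, measured 89.9, 92.7 and 129 TPM after PBS and 73.1, 82.1 and 94.7 TPM after DT, and here too DT 3 exceeded both lower PBS libraries.

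**Figure D1:**
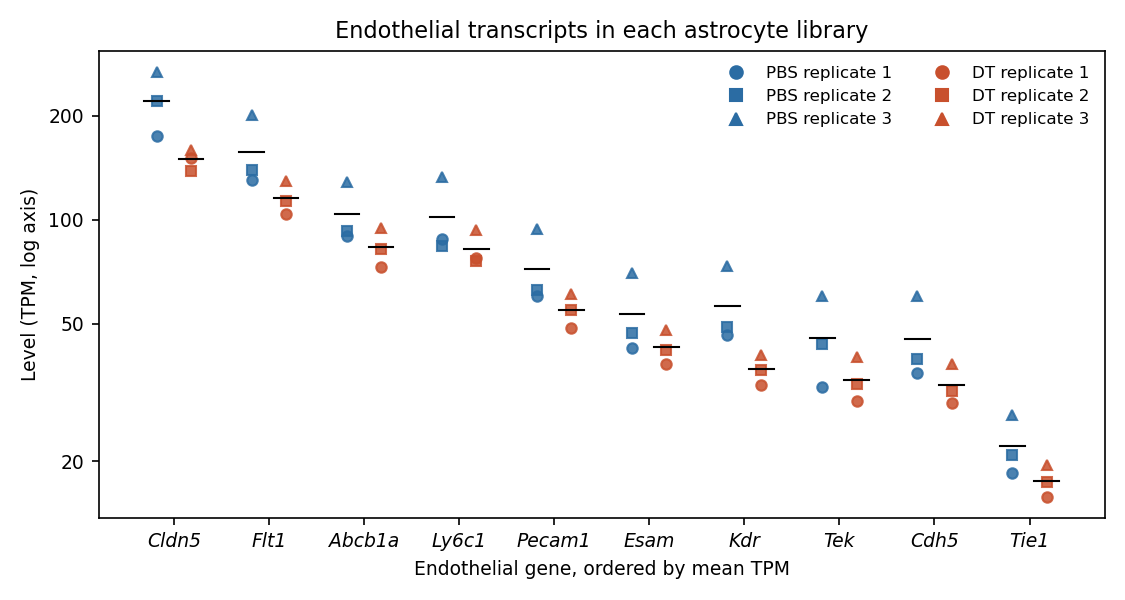
Level of each of the 10 endothelial genes in TPM (logarithmic axis) in the 3 PBS and the 3 DT libraries; each point is 1 library and the bar is the group mean. PBS 3 is the highest point for 10 of 10 genes, and only *Cldn5*, *Flt1* and *Kdr* have every DT point below every PBS point.

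By mean TPM over all libraries the order was *Cldn5*, *Flt1*, *Abcb1a*, *Ly6c1*, *Pecam1*, *Esam*, *Kdr*, *Tek*, *Cdh5* and *Tie1*. Neighbours in this order stood the same way in 6 of 6 libraries except for 3 pairs. *Abcb1a* exceeded *Ly6c1* in 4 of 6 libraries, *Esam* exceeded *Kdr* in 3, and *Tek* exceeded *Cdh5* in 4, so these pairs cannot be ranked. The levels were far under those of astrocyte transcripts: the median member reached 64.2 TPM after PBS, against 920 TPM for the median astrocyte marker. Among the 15137 genes tested the members stood between the 49.9th (*Tie1*) and the 95.8th percentile (*Cldn5*) of PBS TPM. Counts were ample, with 486 to 9727 reads for a member in a library, and counting error alone gave a coefficient of variation of at most 4.54%. The spread between pools was larger, 19.9 to 29.7% among PBS and 7.85 to 13.9% among DT libraries (CPM). On the log2 scale the members' median SD among PBS libraries was 0.36, against 0.092 for 6242 genes of like level, and among DT libraries 0.15 against 0.083.

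Comparing DT with PBS asks how these transcripts stood after the toxin and the loss of microglia. No library came from toxin-treated mice without the receptor, so the toxin itself and the loss of microglia cannot be told apart. All 10 members were lower after DT, with log2 differences of CPM + 0.1 from -0.59 (*Kdr*) to -0.29 (*Ly6c1*) and a median of -0.38 beside a median of -0.0052 over all genes tested, of which 51.3% were lower. None passed the test: limma called 0 of 10 at an adjusted p under 0.05 (Benjamini-Hochberg over all genes tested, two-sided), where 0.159% of genes tested were called lower, and 6 of 10 had an unadjusted p under 0.05, beside 4.51% of genes tested that were lower at that level. The quasi-likelihood test of edgeR on reads recovered from CPM also called 0 (0.152% of genes tested called lower). DESeq2 and the exact test of edgeR each called 2, *Cldn5* and *Kdr*. Their adjusted p-values were 0.00470 and 0.00907 in DESeq2 and 0.0152 and 0.0327 in the exact test, in which 0.647% and 0.482% of genes tested were called lower. Over 17 alternative settings the adjusted p lay between 0.00470 and 0.451 for *Cldn5* and between 0.00907 and 0.477 for *Kdr*.

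*Kdr* differed by -0.59 ± 0.16 (log2, SE; 95% interval -0.96 to -0.23; limma adjusted p = 0.225) and *Cldn5* by -0.55 ± 0.14 (interval -0.87 to -0.24; adjusted p = 0.183). *Flt1* followed at -0.43 ± 0.15 (interval -0.77 to -0.08; adjusted p = 0.380). *Cdh5* differed by -0.43 and *Pecam1* by -0.38 (limma adjusted p = 0.466 for each). For *Tek* the log2 difference was -0.38, for *Tie1* -0.33, for *Abcb1a* -0.32, for *Esam* -0.30 and for *Ly6c1* -0.29, with limma adjusted p-values from 0.473 (*Tie1*) to 0.617 (*Ly6c1*). The intervals are not corrected for the number of genes. In CPM every DT library lay below every PBS library for 4 members (*Cldn5*, *Kdr*, *Flt1* and *Pecam1*), beside 7.57% of genes tested, and in TPM for 3 (not *Pecam1*), beside 6.65%. For a single gene the exact permutation test of 3 against 3 libraries cannot go below p = 0.1, the value these genes reached. In bulk RNA a smaller number of endothelial cells and less RNA per cell cannot be told apart.

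**Figure D2:**
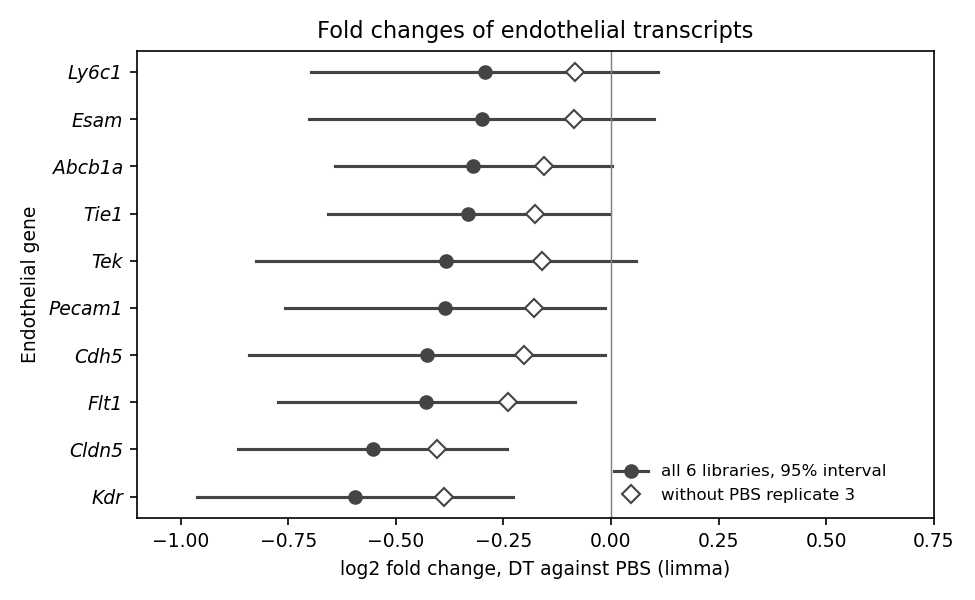
Log2 fold change of each endothelial gene, DT against PBS (log2 of CPM + 0.1), with all 6 libraries and without PBS 3; bars are 95% intervals from limma for all 6 libraries and the vertical line marks 0. All 10 estimates lie under 0 with and without PBS 3, and the median moves from -0.38 to -0.18 when PBS 3 is left out. With DT 3 left out instead, which is not drawn, the median is -0.48.

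The difference depended on the library left out and was smallest without PBS 3. PBS 3 was the highest of all 6 libraries for 10 of 10 members, where 16.7% of genes tested had their highest value in it, and its CPM was 1.36-fold (*Cldn5*) to 1.60-fold (*Cdh5*) the mean of PBS 1 and PBS 2, with a median of 1.54. Without PBS 3 the members were still lower in 10 of 10, but the median difference was -0.18, and limma again called none of them (0.0661% of genes tested called lower). *Cldn5* and *Kdr* then differed by -0.40 and -0.39, while *Ly6c1* and *Esam* differed by -0.08 and -0.09. Leaving out DT 3 instead gave a median of -0.48. The median was -0.51 without PBS 1, -0.46 without PBS 2, -0.31 without DT 1 and -0.37 without DT 2. Among DT libraries, DT 3 was the highest for 10 of 10 members, and DT 1 was the lowest of all libraries for 8, DT 2 for the other 2. The median member, centred on its own mean, stood at -0.02, 0.04 and 0.59 in PBS 1, 2 and 3 and at -0.32, -0.25 and -0.02 in DT 1, 2 and 3 on the log2 scale. DT 3 and PBS 1 therefore stood at the same height.

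**Figure D3:**
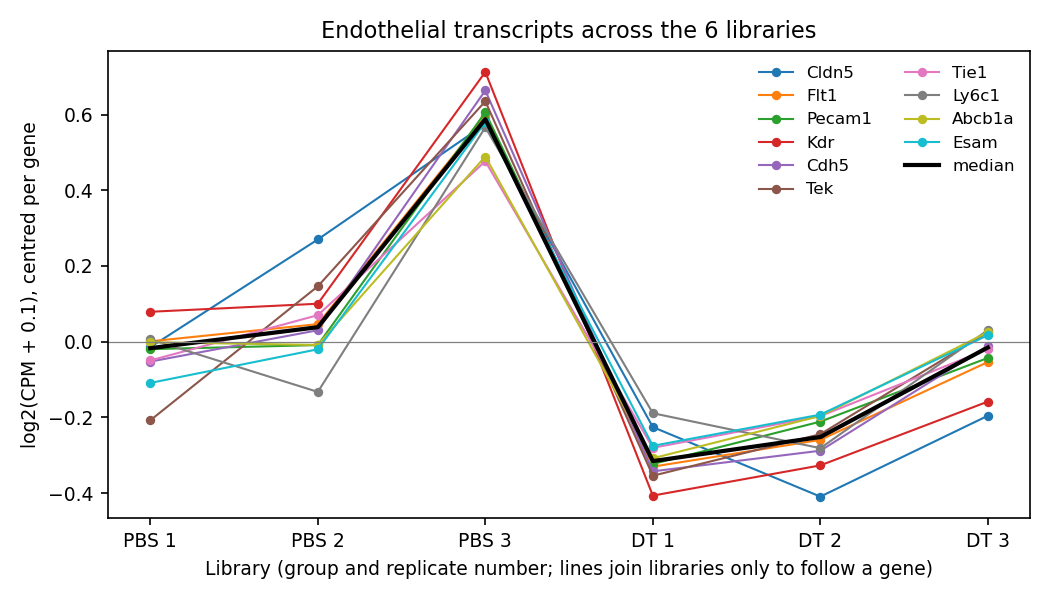
Log2 CPM of each endothelial gene centred on its own mean, by library (PBS 1 to 3, then DT 1 to 3), with the members' median as a heavy line; libraries within a group have no order. The members keep together in each library, high in PBS 3 at a median of 0.59 and low in DT 1 at -0.32.

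Summed over the members, endothelial transcripts made 719, 798 and 1115 TPM in PBS 1, 2 and 3 and 601, 626 and 723 TPM in DT 1, 2 and 3. These sums are 0.0721, 0.0799 and 0.112% of all TPM in the PBS libraries and 0.0602, 0.0628 and 0.0725% in the DT libraries. In TPM the groups overlapped by 1 library, DT 3 lying just above PBS 1. Summed in CPM they did not overlap, the closest being DT 3 at 847 and PBS 1 at 865 CPM. The ratio of the group means, DT over PBS, was 0.741, and it was 0.857 without PBS 3. Set against the astrocyte markers of the same library, the sums were 19.0, 21.9 and 30.1 TPM per 1000 astrocyte TPM after PBS and 15.8, 17.3 and 20.3 after DT, with a ratio of 0.753.

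Other cells of the vessel were measured in the same libraries. Pericyte markers, which include *Vtn* and *Rgs5*, summed to 1394, 993 and 1485 TPM in PBS 1, 2 and 3 and to 1178, 1289 and 1596 TPM in DT 1, 2 and 3, with 6 of 12 higher and 6 lower, a median log2 difference of 0.01 and 0 called by limma, edgeR or DESeq2 (1 at an unadjusted p under 0.05 in limma). Smooth muscle markers such as *Acta2* and *Myl9* summed to 238, 187 and 328 TPM after PBS and to 193, 233 and 302 TPM after DT, with 0 of 8 called by any of these tools (0 at an unadjusted p under 0.05 in limma). Both sums were highest in PBS 3 among the controls and in DT 3 among the treated libraries, and lowest of all in PBS 2. Gene by gene over all 6 libraries, 2 of 12 pericyte and 5 of 8 smooth muscle markers were highest in PBS 3. This held for 10 of 10 endothelial members and for 16.7% of genes tested. Fibroblast markers summed to 135 to 190 TPM after PBS and 131 to 177 TPM after DT. Red blood cell transcripts were the most uneven, at 85.4, 36.6 and 613 TPM after PBS and 14.7, 274 and 142 TPM after DT, with *Hba-a1* at 332 TPM in PBS 3 and no more than 14.6 TPM elsewhere. *Hba-a1* and *Hba-a2* are near-identical and their reads may be split wrongly, and *Hbb-bt* was listed at 0 in every library. Platelet markers summed to 11.9 to 41.1 TPM after PBS and 8.69 to 29.3 TPM after DT. Of 11 monocyte and lymphocyte markers 6 were listed at 0 in every library, and the list summed to 5.12 to 9.45 TPM after PBS and 4.49 to 5.79 TPM after DT. Whether the uneven amount of vessel and blood RNA between pools has a part in the members' difference was not tested.

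**Figure D4:**
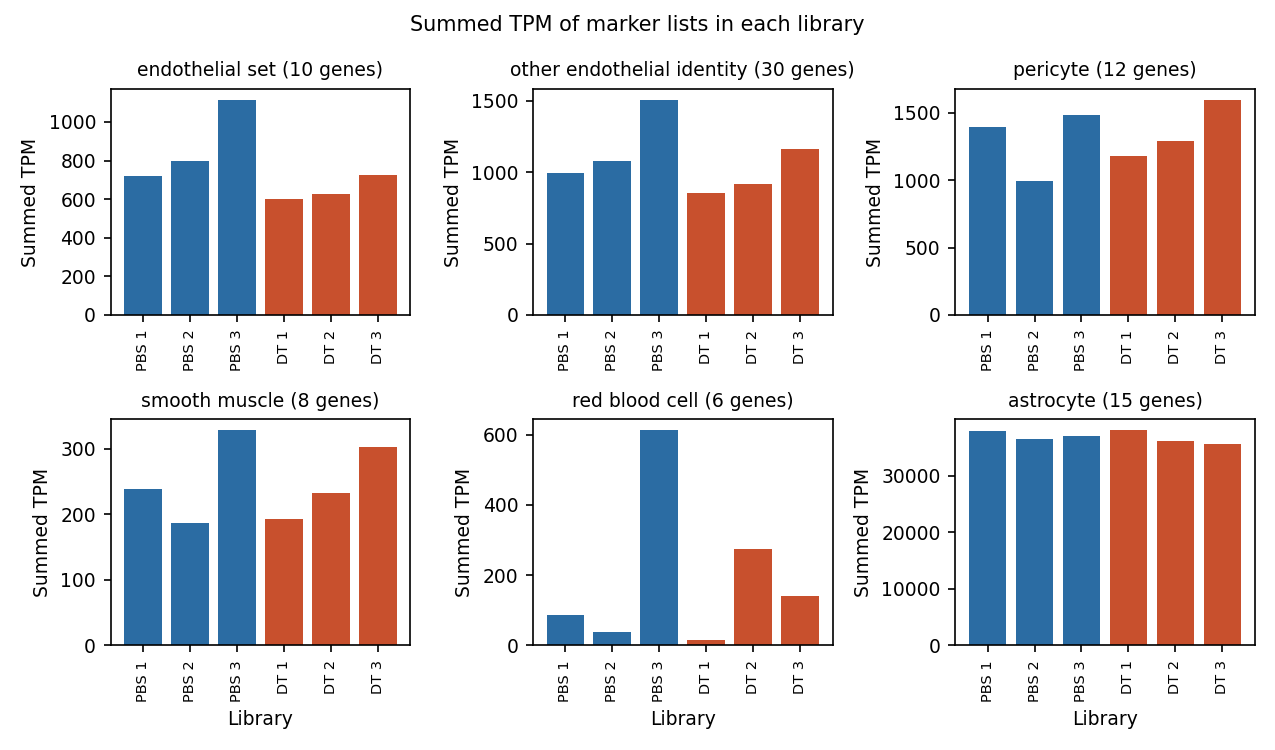
Summed TPM of the endothelial set and of marker lists of other cells by library, each panel with its own axis starting at 0. The endothelial sum is highest in PBS 3 (1115 TPM) and lowest in DT 1 (601 TPM), red blood cell transcripts reach 613 TPM in PBS 3, and the pericyte sum is highest in DT 3 (1596 TPM).

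To see which members moved away from the rest, each was set against the mean log2 level of the other 9 in the same library, so that a shift shared by the members drops out. *Kdr* stood at 0.13, 0.06 and 0.14 in PBS 1, 2 and 3 and at -0.11, -0.07 and -0.13 in DT 1, 2 and 3 (log2, centred). All DT libraries lay below all PBS libraries, with a difference of -0.21 (exact permutation p = 0.1, two-sided, the smallest possible), and PBS 3 lay beside PBS 1 on this scale. *Esam* stood the other way, at -0.08, -0.08 and -0.01 after PBS and 0.03, 0.08 and 0.06 after DT, a difference of 0.11 (exact permutation p = 0.1). *Cldn5* had 0.02, 0.25 and -0.02 after PBS and 0.09, -0.17 and -0.17 after DT, with PBS 2 above and DT 2 and DT 3 below the other 3 libraries. The other 7 members overlapped between groups and differed by -0.03 (*Flt1*, *Cdh5*) to 0.12 (*Ly6c1*). Set against the members' median profile, 0.377% of all genes tested were lower in every DT than in every PBS library and 31.4% were higher (the members' median is itself lower after DT). The ratios of the 10 members are not independent, since a lower value of 1 member raises those of the rest, and the 1 lower and 1 higher among them are given as a description.

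**Figure D5:**
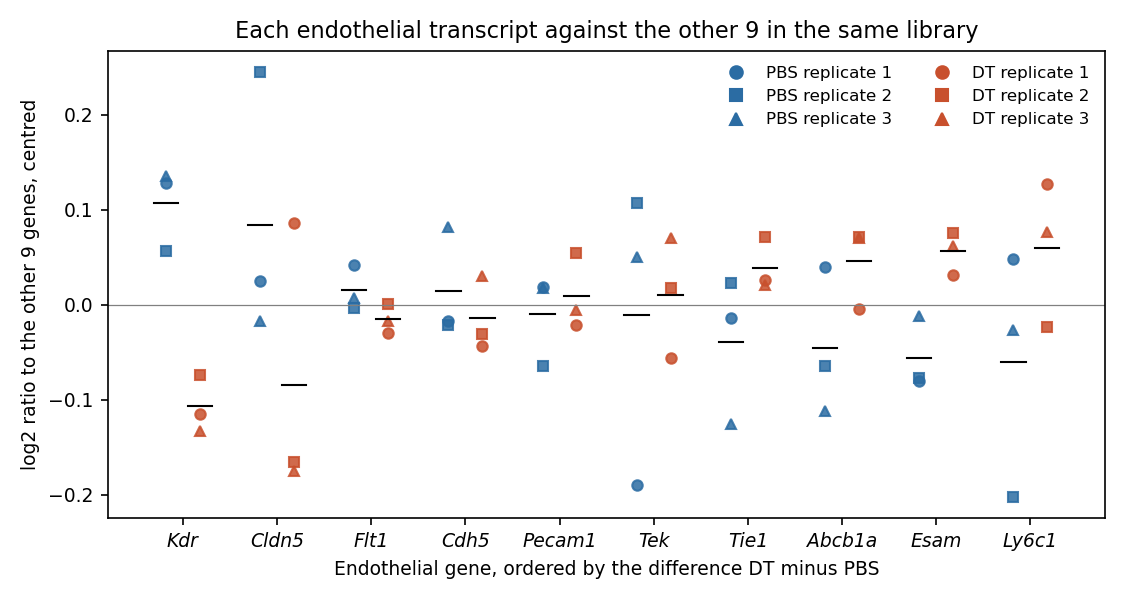
Log2 ratio of each endothelial gene to the mean log2 level of the other 9 in the same library, centred on the gene's mean; each point is 1 library and each short line a group mean. For *Kdr* all DT points lie below all PBS points (difference -0.21) and for *Esam* all lie above (0.11); the other 8 overlap.

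Ligands and co-receptors of the members, several of which astrocytes and mural cells express, were measured in the same libraries. *Vegfa*, the ligand of *Flt1* and *Kdr*, which astrocytes make, measured 513, 559 and 451 TPM after PBS and 474, 422 and 372 TPM after DT. The log2 difference was -0.27 with overlap of the groups (limma adjusted p = 0.460). *Vegfb*, at 172 to 194 TPM after PBS, and *Nrp1*, a co-receptor of VEGF, at 50.8 to 60.8 TPM, differed by -0.05 and -0.11. Of 8 genes of the VEGF list tested, 2 were higher and 6 lower, with 0 called by limma, edgeR or DESeq2 (1 at an unadjusted p under 0.05 in limma) and a median of -0.08. *Angpt1*, the activating ligand of TIE2, measured 30.9, 39.8 and 33.6 TPM after PBS and 57.1, 51.0 and 44.9 TPM after DT. Here all DT values exceeded all PBS values (beside 8.75% of genes tested in CPM), with a log2 difference of 0.54 ± 0.12 (SE) that limma did not call (adjusted p = 0.113) and that DESeq2 and the exact test of edgeR did. *Angpt2*, the ligand that can oppose it, lay between 2.505 and 4.28 TPM in all libraries, and *Angpt4* was listed at 0 in every library but PBS 2 and was not tested.

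Other genes of endothelial identity had a like profile over the libraries. Of 32 genes listed 29 were tested, and 29 were lower after DT, with a median log2 difference of -0.35, or -0.15 without PBS 3. Neither limma, edgeR (both tests) nor DESeq2 called any of them, with 11 at an unadjusted p under 0.05 in limma, and 28 of 29 were highest in PBS 3, all but *Pltp*. *Egfl7*, a secreted protein of vessels, measured 67.7, 79.2 and 119 TPM after PBS and 61.4, 59.97 and 71.4 TPM after DT. *Itm2a* measured 100.4, 116 and 191 TPM after PBS and 88.9, 87.1 and 123 TPM after DT. *Pltp*, a phospholipid transfer protein, had the highest level of the list, at 222, 242 and 258 TPM after PBS and 211, 219 and 305 TPM after DT (log2 difference -0.0040).

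Junction partners, membrane proteins and the scaffolds under them, several of which other cell types share, were split, as 6 of 15 were higher and 9 lower, with a median of -0.04, and none was called by limma, edgeR or DESeq2 (3 at an unadjusted p under 0.05 in limma). *Tjp1*, the scaffold ZO-1, measured 237, 226 and 242 TPM after PBS and 228, 231 and 237 TPM after DT. *Jam2* stood at 165 to 190 TPM after PBS and 154 to 158 TPM after DT (log2 difference -0.17, limma adjusted p = 0.483), and *Ctnna1*, alpha-catenin, at 232 to 255 and 266 to 273 TPM (0.12, adjusted p = 0.515). Transcription factors of endothelium were lower in 16 of 18, with a median of -0.30, or -0.19 without PBS 3. Of these limma and edgeR called 0 (4 at an unadjusted p under 0.05 in limma) and DESeq2 called *Klf4*. *Klf4*, a factor induced by flow, measured 41.8, 52.0 and 76.5 TPM after PBS and 37.0, 34.9 and 39.5 TPM after DT, a log2 difference of -0.58 with groups that did not overlap (limma adjusted p = 0.337). *Klf2*, which also responds to flow, differed by -0.41, and *Epas1*, the hypoxia factor HIF-2 alpha, by -0.10.

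Among barrier transporters limma called 1. *Slco1c1*, a thyroid hormone transporter that astrocytes express as well as endothelium, fell from 261, 291 and 306 TPM after PBS to 210.0, 214 and 224 TPM after DT, a log2 difference of -0.42 ± 0.065 (SE; limma adjusted p = 0.032). The groups were apart by more than their spread, but the call was lost in 8 of 17 alternative settings, among them the use of TPM, quantile normalization, no variance trend and each of the fits without PBS 2, PBS 3, DT 1, DT 2 or DT 3, where the limma adjusted p lay between 0.0750 (without DT 3) and 0.174 (without DT 2). Of 20 barrier transporters 5 were higher and 15 lower, with a median of -0.14, or -0.08 without PBS 3, and DESeq2 called *Slc40a1*, an iron exporter, as well. *Slc2a1*, the glucose transporter GLUT1, measured 347, 341 and 418 TPM after PBS and 338, 336 and 395 TPM after DT (log2 difference -0.06), and *Slc3a2*, the heavy chain of the amino acid exchangers, differed by 0.06. Genes of the Wnt program that induces the barrier were split, with 7 of 15 higher, 8 lower and a median of -0.01. None was called by limma, edgeR or DESeq2 (3 at an unadjusted p under 0.05 in limma). In CPM the groups did not overlap for 2 lower and 3 higher genes, beside 7.57% and 8.75% of genes tested. *Wnt7b*, *Apcdd1* and *Tspan12*, those with the highest mean TPM, differed by 0.17, 0.20 and 0.15. Arterial and venous markers were higher in 5 and lower in 10 of 15, with a median of -0.07, or -0.14 without PBS 3, and again none called by these tools (3 at an unadjusted p under 0.05 in limma). *Tmsb10*, *Hey1* and *Alpl* differed by -0.19, 0.10 and -0.37.

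Of 5 leukocyte adhesion genes tested, *Icam1* rose and *Selplg* fell. *Icam1*, the adhesion molecule that inflamed endothelium and astrocytes display, measured 6.10, 7.46 and 8.68 TPM after PBS and 15.9, 15.7 and 15.7 TPM after DT (log2 difference 1.08, limma adjusted p = 0.017). Its DT libraries lay close together and above all controls. *Selplg*, the P-selectin ligand, which microglia and leukocytes carry, fell from 5.55, 7.55 and 7.95 TPM to 0.227, 0.314 and 1.35 TPM (log2 difference -3.52, adjusted p = 0.022). These calls were lost in 5 and 6 of 17 alternative settings. Without PBS 2, DT 1, DT 2 or DT 3 the limma adjusted p of *Icam1* was 0.0605 to 0.0961, and without PBS 1, PBS 2, PBS 3, DT 1 or DT 2 that of *Selplg* was 0.0598 to 0.0961. *Vcam1*, *Jam3* and *Cd99l2* were not called. *Cd99l2* measured 83.0 to 84.5 TPM after PBS and 30.6, 79.2 and 80.1 TPM after DT, so its lower mean came mostly from DT 1. DT 2 and DT 3 also lay below every PBS library (groups apart in TPM for 6.65% of genes tested, lower after DT).

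The genes with the profile most like that of the members were sought over all 15127 other genes tested, by the root mean square difference of centred log2 CPM from the members' median over the 6 libraries. The closest were *Adgrf5* (0.037), *Spock2* (0.043), *Pllp* (0.049), *Btg2* (0.061), *Slco1a4* (0.064), *Grb14* (0.064), *Ptprb* (0.066), *Grap* (0.067), *Prom1* (0.067) and *9430020K01Rik* (0.067). Of these 10, *Adgrf5*, *Ptprb* and *Slco1a4* were on a vascular list. The members themselves lay at 0.019 (*Flt1*) to 0.141 (*Cldn5*), and the median gene at 0.329. Among the 100 most like genes, 0.661% of those searched, were 14 of the 29 other endothelial identity genes. *Spock2*, a matrix proteoglycan, measured 352, 381 and 506 TPM after PBS and 278, 315 and 357 TPM after DT, a level above that of every member. These likenesses rest on 6 libraries and are given as a description.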

How the data were processed

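Strand-specific RNA-seq libraries of MACS-isolated astrocytes were compared, 3 per group. According to the methods of the study, reads were trimmed (Trim Galore 0.5.0), checked (FastQC 0.11.8), mapped to mm10 (HISAT2 2.1.0), cleared of rDNA reads (BEDTools 2.25.0), quantified per gene (StringTie 1.3.5) and tested in edgeR 3.24.3 under R 3.5.1. The authors deposited CPM as a normalized signal, scaled to library sizes adjusted by TMM factors (0.974 to 1.02), and the authors deposited TPM values per gene. CPM steps gave whole reads for 100% of values (tolerance 0.0006 CPM). The deposited columns of log fold changes, p-values and q-values hold the authors' own comparison and were not used. In the tables, 27 gene names had turned into dates and 2 gene names were listed more than 1 time; none is a member.

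The test was planned for plain CPM and kept: limma 3.58.1 (R 4.3.3) with a variance trend on log2(CPM + 0.1), which understates changes of low genes, applied to the 15137 genes whose mean CPM reached 0.5, two-sided, Benjamini-Hochberg adjustment, threshold 0.05. Alternatives were edgeR 4.0.16 and DESeq2 1.42.0 on recovered reads, other pseudocounts, filters, scalings, a replicate block and leaving out each library. The fit was tested on simulated data. Named genes were the 10 members and their paralogs; in each vascular list every gene called and the 3 with the highest mean TPM; in the list of each other cell type the 2 with the highest mean TPM and, for macrophages, microglia and mural cells, those called; and the 10 genes most like the members. *Siglech* is given as the targeted gene, and *Gfap* only as the study reported it. *Hbb-bt*, *Slc40a1* and *Aqp4* were added after their values were seen. The members and gene lists were chosen with earlier results of these data known. Promoter sequences came from RefSeq and positions from GENCODE M21. Counting error sets a lower limit on precision; the spread between pools is larger.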

Additional observations from a re-analysis of the deposited data

How the results depend on the processing

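Each member kept a log2 difference under 0 in all 17 alternatives, and 166 of 170 member results stayed on the same side of the threshold; the other 4 were *Cldn5* and *Kdr*, called by DESeq2 and by the exact test of edgeR, which was chosen after seeing the data. Those tools called 2 members each, against 0 by limma, and over all genes 227 higher and 98 lower (DESeq2) and 185 higher and 73 lower (exact test), against 84 and 24. Without the variance trend 35 were higher and 11 lower. Leaving out 1 library gave 39 to 72 higher and 9 to 20 lower, with 0 members called each time. The lowest counts of lower genes came without PBS 2 (9), PBS 3 or DT 2 (10 each) and PBS 1 (11), and the lowest of higher genes without DT 1 (39) and DT 2 (40). The members' median ranged from -0.51 to -0.18 and the ratio of sums from 0.680 to 0.857, with PBS 3 left out at the -0.18 and the 0.857; the cause was not tested. With a replicate block limma called 79 higher, 30 lower and 0 members, the lowest adjusted p being 0.0544 (*Kdr*). The members' median limma adjusted p was 0.137 with the block, against 0.469 in the main fit. Deviations of same-numbered libraries correlated at 0.115, 0.0105 and 0.118, and those of unlike-numbered libraries at -0.124 to 0.0115. These values do not decide whether the numbers mark pairs. No label ties a number to an experiment, so the block was kept as an alternative only. The members' counting error was at most 4.54%, and an effect of depth was not tested.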
